A study of Mus musculus with 8 samples.

Results

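The Nrf2 pathway antioxidant genes are 10 genes of the cell's defence against oxidants, found by symbol among the 25913 genes of the deposited read counts: Nfe2l2, Keap1, Gclc, Gclm, Hmox1, Txnrd1, Cat, Sod1, Sod2 and Prdx6. Each symbol matched 1 gene. Their mRNA was sequenced, after poly(A) selection with a stranded kit, from dissected olfactory epithelium of C57BL/6J mice, all 40 weeks old, in a study of the loss of Igf1r, the insulin-like growth factor 1 receptor, from olfactory sensory neurons. There were 4 libraries titled IGF1R_flfl (replicates 1, 2, 13 and 3) and 4 titled OMP_IGF1R (replicates 11, 12, 17 and 18). The genotype field names the first group OMPIGF1 (KO) and the second OMPflfl (Ctrl), the reverse of what the titles read, so groups are called by their titles here and no direction is given with respect to the knockout. The design text gives the knockout as homozygous and limited to a tissue, and the construct that drives it is not given in the sources used here. The dissected tissue holds supporting, gland, basal, blood and connective tissue cells beside the neurons, and in such bulk samples fewer cells of a type and less RNA per cell cannot be told apart.

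Nrf2, encoded by Nfe2l2, is a transcription factor that Keap1 holds in the cytoplasm and hands to a cullin ubiquitin ligase for destruction. Oxidants and electrophiles modify cysteines of Keap1, and Nrf2 then enters the nucleus, pairs with a small Maf protein and binds antioxidant response elements near its target genes. The targets make glutathione, recycle thioredoxin, break down haem and detoxify foreign compounds, which are tasks for which the olfactory epithelium, open to inhaled air, is known.

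The core letters of the antioxidant response element were looked for in the 250 bases before the start sites that RefSeq gives (GRCm38.p6), because they are the letters that Nrf2 is known to bind. The table held 9 windows for 7 of the 10 genes, Nfe2l2, Keap1, Gclm, Txnrd1, Cat, Sod1 and Sod2. Of these windows 3 are those of Txnrd1, and Hmox1, Gclc and Prdx6 had none. The letters TGANNNNGC, searched on both strands, were in 6 of the 9 windows, and in 35.2% of all 32851 windows of this length. The stricter form TGACNNNGC, a subset of the first, was in 4 of the 9 and in 10.2% of all windows. The 4 windows with it held 59.6% to 78.4% G and C, beside a median of 52.4% for all windows. The part of base content in these shares was not tested. Those 4 windows, of Nfe2l2, Gclm, Txnrd1 (the second of its 3 windows) and Sod1, are shown with that of Srxn1, a target gene whose expression differed between the groups, each read 5′ to 3′ on the gene's strand. Capitals mark TGANNNNGC or its reverse complement.
Nfe2l2, chr2:75704664-75704913, minus strand: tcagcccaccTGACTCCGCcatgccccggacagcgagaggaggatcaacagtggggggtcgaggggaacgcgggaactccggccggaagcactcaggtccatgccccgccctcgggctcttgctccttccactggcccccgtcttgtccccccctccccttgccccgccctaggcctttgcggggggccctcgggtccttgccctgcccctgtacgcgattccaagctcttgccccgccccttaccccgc
Gclm, chr3:122245307-122245556, plus strand: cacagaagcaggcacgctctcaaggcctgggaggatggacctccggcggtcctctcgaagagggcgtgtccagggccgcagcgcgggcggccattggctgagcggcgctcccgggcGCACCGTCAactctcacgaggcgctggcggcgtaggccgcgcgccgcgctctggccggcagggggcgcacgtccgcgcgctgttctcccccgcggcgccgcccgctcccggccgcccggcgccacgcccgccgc
Txnrd1, chr10:82858956-82859205, plus strand: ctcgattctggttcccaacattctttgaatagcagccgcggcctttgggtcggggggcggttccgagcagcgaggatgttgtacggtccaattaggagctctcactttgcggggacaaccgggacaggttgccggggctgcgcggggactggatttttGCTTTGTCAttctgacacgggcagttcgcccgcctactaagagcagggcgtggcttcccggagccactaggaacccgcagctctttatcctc
Sod1, chr16:90220512-90220761, plus strand: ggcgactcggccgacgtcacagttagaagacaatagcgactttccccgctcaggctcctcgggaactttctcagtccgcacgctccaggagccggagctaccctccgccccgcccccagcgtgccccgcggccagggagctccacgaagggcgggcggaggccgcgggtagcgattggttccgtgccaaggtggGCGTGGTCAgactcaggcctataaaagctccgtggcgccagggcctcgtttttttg
Srxn1, chr2:152105274-152105523, plus strand: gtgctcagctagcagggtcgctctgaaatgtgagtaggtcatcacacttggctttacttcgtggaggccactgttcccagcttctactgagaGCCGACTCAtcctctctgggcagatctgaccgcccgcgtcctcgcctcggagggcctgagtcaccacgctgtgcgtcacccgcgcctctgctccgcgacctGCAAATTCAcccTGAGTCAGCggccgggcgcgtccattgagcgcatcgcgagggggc
The match begins 240 bases before the start of Nfe2l2, 134 before that of Gclm, 92 before that of Txnrd1 and 56 before that of Sod1. Srxn1 had 3 matches to TGANNNNGC, of which TGAGTCAGC lies 45 bases before the start, and 0 to the stricter form. A match is a description of the letters, not a measured binding site, and the windows of Cat and Sod2 held neither form. Nor did the 2 windows of Gstm1, another target gene that was lower in OMP_IGF1R. Maff, a small Maf gene that was higher in OMP_IGF1R, held the stricter form in window 1 (TGACTCTGC, 112 bases before the start). That window also held TGAGAAGGC, 87 bases before the start, and windows 2 and 3 of Maff held neither form.

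Of the 10 genes, Hmox1 alone passed the test between the groups, lower in the libraries titled OMP_IGF1R (a change of -31.3%). The test was edgeR's quasi-likelihood test over all 17381 genes that passed a filter on low counts, with a Benjamini-Hochberg adjusted p under 0.05 as threshold, and all 10 genes passed that filter. In that fit 8.20% of all genes were called, 5.37% lower and 2.83% higher, so 1 of 10 is near the background share. The groups did not overlap for Hmox1, Nfe2l2 and Gclc, which were lower in all 4 libraries titled OMP_IGF1R than in any titled IGF1R_flfl, while 16.9% of all genes were without overlap and 10.3% were so in the lower direction. The median log2 fold change of the 10 genes, always given as OMP_IGF1R over IGF1R_flfl, was -0.12, beside -0.01 for all tested genes. Of the 10 values 8 were negative, beside 52.5% of all tested genes. DESeq2, which called 12.4% of all genes and 7.76% lower, called Nfe2l2, Gclc and Txnrd1 lower beside Hmox1. With limma voom, which called 10.6% of all genes and 6.97% lower, Nfe2l2 and Gclc were called lower beside it. With the main scaling of each of the 3 tools, no gene of the 10 was called higher. With libraries scaled to mature neuron markers, which moves the median of all genes to 0.65, edgeR called 9 of the 10 higher.

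**Figure D1:**
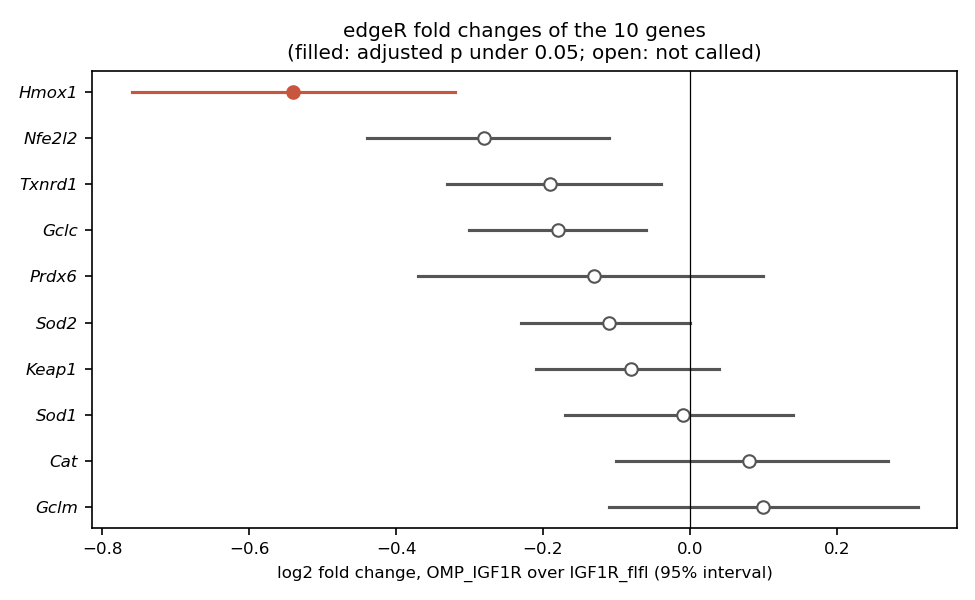
Log2 fold change of each gene, OMP_IGF1R over IGF1R_flfl, on the x axis, with its 95% interval from edgeR as a line and the genes on the y axis. Hmox1, filled, passed the adjusted p threshold at -0.54, and the intervals of Nfe2l2, Txnrd1 and Gclc lie below 0 without an adjusted call. With libraries scaled to mature neuron markers, which moves the median of all genes to 0.65, the 8 negative values turn positive.

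Total counts ran from 18802471 to 27793375 per library, and the 10 genes had 411 to 34616 counts each per library. Levels are given as CPM, counts scaled to a common library total. Igf1r ran from 55.5 to 72.9 CPM under the title IGF1R_flfl and from 34.5 to 49.6 CPM under OMP_IGF1R, and Omp, the marker of mature olfactory sensory neurons, from 4470 to 6734 and from 1708 to 2185 CPM. Summed over 16 mature neuron markers the level was 16185 to 22477 CPM in the first group and 9338 to 11256 CPM in the second, and 15 of the 16 were called lower. Sums of sustentacular markers, the supporting cells, overlapped (27656 to 33805 and 30075 to 31568 CPM, 0 of 9 called by edgeR). An unadjusted edgeR p under 0.05 was found for 2 of these 9, and for 4083 of all 17381 tested genes. Sums of other markers were higher without overlap in OMP_IGF1R, those of immature neurons at 876 to 978 and 1332 to 1529 CPM (10 of 11 called higher), of dividing cells at 126 to 143 and 172 to 199 CPM (9 of 10), of horizontal basal cells at 291 to 352 and 385 to 595 CPM (3 of 8) and of microvillar cells at 114 to 148 and 152 to 209 CPM (3 of 8). The part of these cell types in the values of the 10 genes was not tested. Markers of olfactory bulb and oligodendrocytes reached 1400 CPM in IGF1R_flfl 2, where the other 7 libraries held 67.8 to 108 CPM, and skeletal muscle markers 588 CPM in OMP_IGF1R 17, where the other 7 held 4.36 to 8.47 CPM. Over all genes 34.5% of edgeR's calls were higher, and 58.8% with raw library totals in place of TMM scaling. Scaling the libraries to the mature neuron markers without Omp moved the median of all genes to 0.65, so fold changes under it are read against that shift. The labels do not tell whether each library is its own animal, so p-values measure the spread of these samples alone, and it may be technical. The numbers that open the titles run in separate blocks for the 2 groups, and what those numbers record is not given in the sources used here, so anything that goes with them cannot be told apart from the group.

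The 10 genes spanned a wide range of levels. Values for single libraries are given in the order of replicates 1, 2, 13 and 3 for IGF1R_flfl and 11, 12, 17 and 18 for OMP_IGF1R. Per kilobase of annotated exon, the mean level in the libraries titled IGF1R_flfl was 247 CPM per kb for Prdx6, 134 for Sod1, 74.1 for Nfe2l2, 43.0 for Txnrd1, 31.9 for Gclc, 26.6 for Cat, 19.6 for Gclm, 17.1 for Keap1, 15.4 for Hmox1 and 9.07 for Sod2. By this measure the mRNA of the transcription factor stood above those of 7 of the other genes, its repressor among them. Without division by length, the mean of Txnrd1 (304 CPM) was above that of Nfe2l2 (281 CPM) in the same libraries. Over the 8 libraries the ranges of the first 4 were separate from each other and from the rest, while the ranges of the lower neighbours overlapped. Within a library the order of neighbours was the same in all 8, except that Gclc stood above Cat in 5 of 8, so the order of that pair is not resolved. The exon length is the union over all annotated transcripts, which lowers the per-kilobase value of genes with long alternative ends such as Sod2. A gene's length is the same in every library, so a like order across libraries does not test the lengths.

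**Figure D2:**
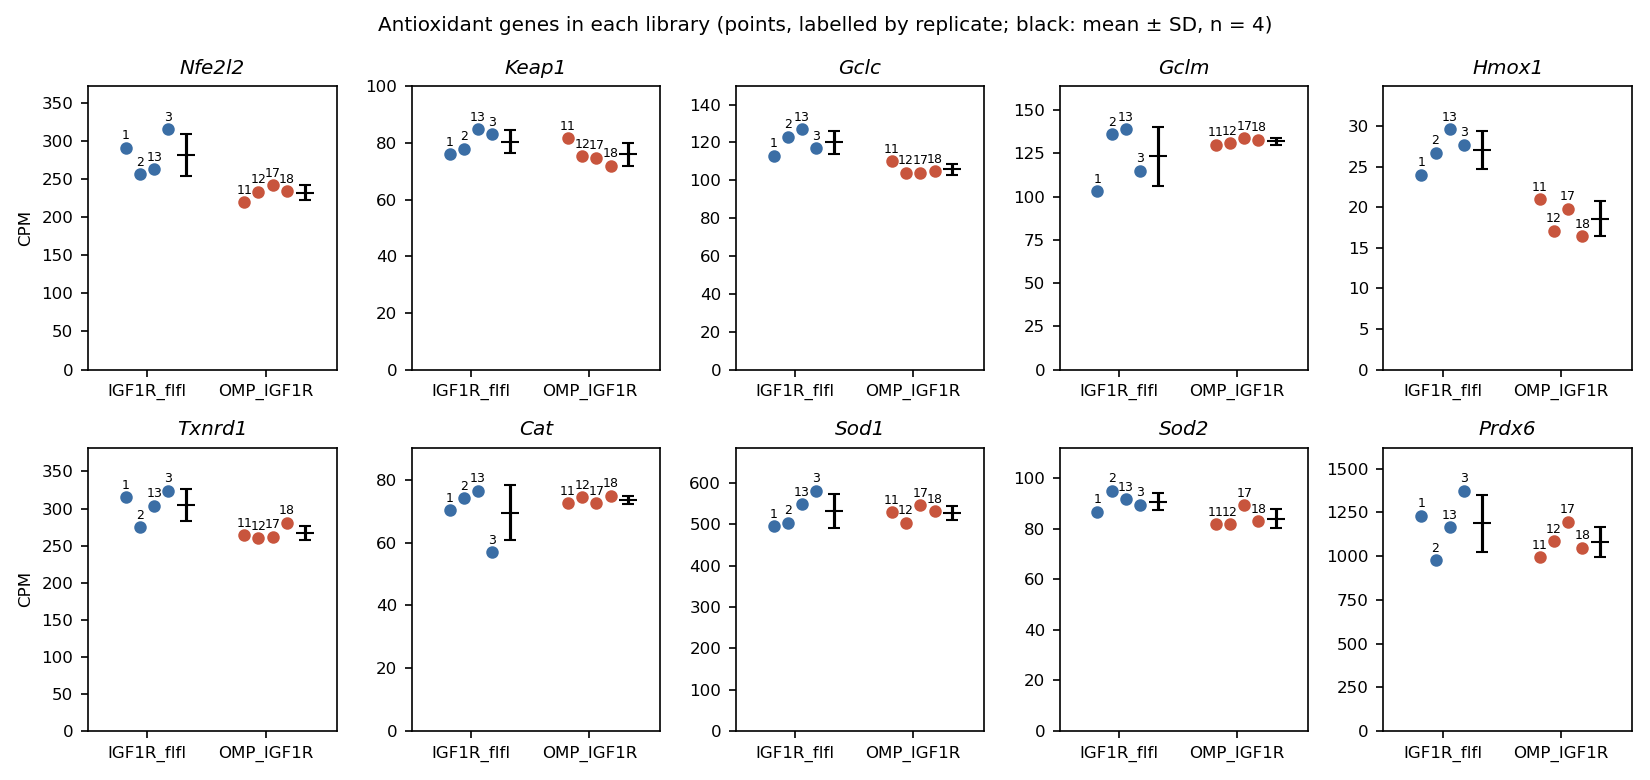
CPM of the 10 genes on the y axis, 1 panel a gene with its own scale from 0, by group on the x axis. Points are libraries with their replicate numbers, and black marks are the mean ± SD of 4 libraries. The 4 OMP_IGF1R libraries lie below all IGF1R_flfl libraries for Nfe2l2, Gclc and Hmox1, and the groups overlap for the other 7 genes.

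Of the sensor pair, Nfe2l2 (ENSMUSG00000015839, GRCm38 chromosome 2, 75675513 to 75704641) was at 291, 256, 263 and 315 CPM across the IGF1R_flfl libraries and 219, 233, 242 and 234 CPM across the OMP_IGF1R libraries. All 4 values of the second group lay below the lowest of the first, and IGF1R_flfl 3 and 1 were the highest. With means of 281 ± 26.9 and 232 ± 9.49 CPM (SD over 4 libraries each) its log2 fold change was -0.28 (SE 0.0746, 95% interval -0.44 to -0.11), which missed the threshold (edgeR adjusted p = 0.0526). It passed without IGF1R_flfl 2 (log2 -0.31, edgeR adjusted p = 0.0348), with DESeq2 (adjusted p = 0.00711) and with limma voom (adjusted p = 0.0251), and without both IGF1R_flfl 2 and OMP_IGF1R 17 (edgeR adjusted p = 0.0436), while the other 7 fits that left out 1 library did not call it (up to 0.131). Keap1 (ENSMUSG00000003308, chromosome 9, 21229730 to 21239332), the repressor, was at 75.9, 78.0, 84.8 and 83.1 CPM across the IGF1R_flfl libraries and 81.6, 75.2, 74.8 and 72.0 CPM across the OMP_IGF1R libraries. Its groups overlapped, and its log2 fold change was -0.08 (SE 0.057, 95% interval -0.21 to 0.04, edgeR adjusted p = 0.413). The log2 ratio of Nfe2l2 to Keap1 within a library, which no scaling of libraries can move, averaged 1.80 ± 0.151 and 1.61 ± 0.129 (SD), with overlap (p by two-sided exact permutation = 0.114, adjusted p = 0.171 over 3 ratios).

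Among 13 other regulators of Nrf2, 1 rose, 0 fell and 12 were not called (median log2 fold change -0.02). Of all tested genes 8.2% were called, 2.83% higher and 5.37% lower, so 1 of 13 is near the background share. The one that rose was Maff, a small Maf protein, at 14.9, 11.3, 10.4 and 12.1 CPM across the IGF1R_flfl libraries and 19.3, 24.8, 17.1 and 18.9 CPM across the OMP_IGF1R libraries. Every library of the second group was above every library of the first (log2 0.71, SE 0.142, edgeR adjusted p = 0.018), and the call held in all 8 fits that left out 1 library (adjusted p up to 0.0483). Small Maf proteins lack a domain that activates transcription and act through their partners, Nrf2 being one of them. The other 2 small Maf genes were near 0 in log2 fold change, Mafg at -0.04 and Mafk at 0.01, values picked after they were seen to set beside Maff. Cul3, the cullin that Keap1 recruits, was at -0.08, Nfe2l1, a related factor, at -0.11, and Btrc, an adaptor of a second ubiquitin ligase that acts on Nrf2, at -0.13, none of them called.

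The first step of glutathione synthesis is made by glutamate-cysteine ligase, whose catalytic subunit is encoded by Gclc and whose modifier subunit, which raises the enzyme's efficiency, by Gclm. Gclc (ENSMUSG00000032350, chromosome 9, 77754535 to 77794485) was at 113, 123, 127 and 117 CPM across the IGF1R_flfl libraries and 110, 104, 104 and 105 CPM across the OMP_IGF1R libraries. The groups did not overlap, but OMP_IGF1R 11 came close to IGF1R_flfl 1. The log2 fold change was -0.18 (SE 0.0531, 95% interval -0.30 to -0.06, edgeR adjusted p = 0.0682), and DESeq2 (adjusted p = 0.0206) and limma voom (adjusted p = 0.0454) called it. Gclm (ENSMUSG00000028124, chromosome 3, 122245557 to 122269984) was at 103, 136, 139 and 115 CPM across the IGF1R_flfl libraries and 130, 131, 134 and 133 CPM across the OMP_IGF1R libraries. The first group enclosed the second, whose 4 libraries were nearly alike (coefficients of variation 14.3% and 1.35%). Its log2 fold change was 0.10 (SE 0.093, 95% interval -0.11 to 0.31, edgeR adjusted p = 0.567), and 0.02 without IGF1R_flfl 1 and 0.17 without IGF1R_flfl 13. Gm17494 lies within the bounds of Gclm on the other strand, and without a stated strand setting their reads cannot be told apart, and it held 12 to 27 counts per library against 2555 to 3573 for Gclm. In the GENCODE annotation Gclm also overlaps Gm6061, Txnrd1 overlaps Eid3 and Nfe2l2 overlaps Gm24996, each on the same strand. On the other strand Sod1 overlaps Scaf4 and Keap1 overlaps Gm16754. The part of such overlaps in the counts was not tested.

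Measured within a library, the 2 subunits can be compared without any scaling of libraries. The log2 ratio of Gclm to Gclc was -0.13, 0.14, 0.13 and -0.03 across the IGF1R_flfl libraries, whereas the OMP_IGF1R libraries gave 0.25, 0.32, 0.37 and 0.33. All 4 libraries of the second group exceeded all 4 of the first. The means were 0.03 ± 0.134 and 0.32 ± 0.0507 (SD), a difference of 0.29 (p by two-sided exact permutation = 0.0286, the smallest that 70 arrangements allow). Adjusted over the 3 ratios tested the p was 0.0857, which does not pass the threshold. Left out one at a time, the libraries gave differences of 0.24 to 0.33, each with the smallest p that 3 against 4 allows (exact permutation test, p = 0.0571).

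**Figure D3:**
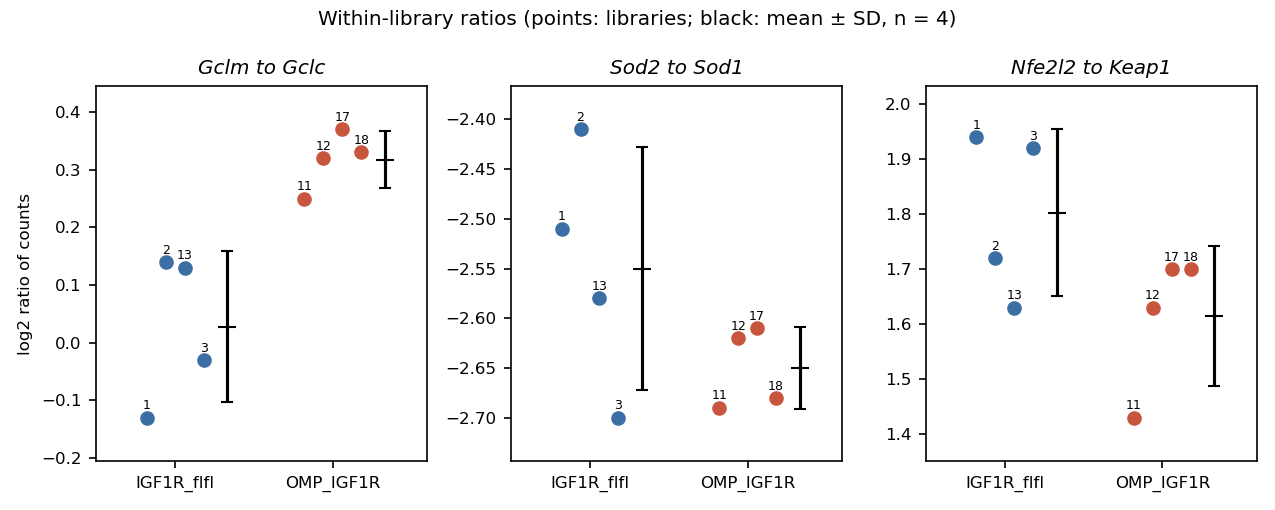
Log2 ratio of 2 genes within each library on the y axis, for Gclm to Gclc, Sod2 to Sod1 and Nfe2l2 to Keap1, by group on the x axis. Points are libraries with their replicate numbers, and black marks are the mean ± SD of 4 libraries. The Gclm to Gclc ratio is 0.25 to 0.37 in OMP_IGF1R and -0.13 to 0.14 in IGF1R_flfl, and the groups overlap for the other 2 ratios.

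None of 21 tested genes of the wider glutathione system was called by edgeR (median log2 0.10), 0 by DESeq2 and 1 by limma voom. Where 4083 of all 17381 tested genes had an unadjusted edgeR p under 0.05, 3 of these 21 did. The 4 with the smallest p were Gpx6, a glutathione peroxidase at 2198 ± 539 and 2860 ± 285 CPM (log2 0.38), Glrx5, a mitochondrial glutaredoxin (0.15), Slc7a11, the cystine importer that feeds glutathione synthesis (0.46), and Gpx5, which averaged about 1 CPM (0.76). Slc7a11 was called without IGF1R_flfl 2 and by limma voom, and Glrx5 with raw library totals.

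Hmox1 encodes haem oxygenase 1, the inducible enzyme that opens the haem ring, and it is one of the best known Nrf2 targets. Hmox1 (ENSMUSG00000005413, chromosome 8, 75093591 to 75100596) was at 24.0, 26.7, 29.6 and 27.7 CPM across the IGF1R_flfl libraries and 21.0, 17.1, 19.8 and 16.4 CPM across the OMP_IGF1R libraries. The highest value of the second group, in replicate 11, was below the lowest of the first, in replicate 1. Hmox1 fell from 27.0 ± 2.32 to 18.6 ± 2.17 CPM (SD over 4 libraries each), with a log2 fold change of -0.54 (SE 0.0969, 95% interval -0.76 to -0.32, edgeR adjusted p = 0.0123). The call held in all 8 fits that left out 1 library (log2 -0.60 to -0.49, adjusted p up to 0.0443) and in 7 of 8 other scalings, filters and tools. With libraries scaled to mature neuron markers the value was 0.11 (edgeR adjusted p = 0.454), or -0.54 relative to the shifted median of all genes.

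Macrophages also express Hmox1 strongly, so their markers are set beside it. The 11 macrophage markers summed to 308 to 476 CPM in the libraries titled IGF1R_flfl and to 416 to 517 CPM in those titled OMP_IGF1R. All 10 tested had positive fold changes (median log2 0.24) and 0 were called by edgeR. An unadjusted edgeR p under 0.05 was found for 2 of them, and for 4083 of all 17381 tested genes. Marco had 0 counts in every library, which allows up to 3 counts per library. Red cell markers summed to 135 to 450 and 163 to 361 CPM, with overlap. The mature neuron markers were lower in the same libraries as Hmox1. The part of macrophage, red cell or neuron content in its change was not tested.

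In the list of 12 superoxide, iron and haem genes, edgeR called 0 (median log2 -0.01). Its unadjusted p was under 0.05 for 1 of them, and for 4083 of all 17381 tested genes. DESeq2, which called 12.4% of all genes, called 2 of the list, Hmox2 lower (adjusted p = 0.0345) and Ftl1 higher (adjusted p = 0.0391). Hmox2, the constitutive haem oxygenase, was at 93.1, 88.7, 86.0 and 99.9 CPM across the IGF1R_flfl libraries and 78.1, 71.5, 85.7 and 78.0 CPM across the OMP_IGF1R libraries, so its groups touched without overlap. Its log2 fold change was -0.23 (SE 0.0687, edgeR adjusted p = 0.0726), and it was called without OMP_IGF1R 17. Ftl1, a ferritin subunit that stores the iron released from haem, was at 590 ± 30.8 and 645 ± 6.26 CPM (log2 0.13, edgeR adjusted p = 0.224). Sod3, the extracellular superoxide dismutase (0.30), and Slc40a1, the iron exporter (-0.28), were not called.

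Txnrd1 encodes the cytosolic thioredoxin reductase, a selenoprotein that keeps thioredoxin reduced. Txnrd1 (ENSMUSG00000020250, chromosome 10, 82859206 to 82897724) was at 315, 275, 304 and 324 CPM across the IGF1R_flfl libraries and 264, 260, 262 and 281 CPM across the OMP_IGF1R libraries. The groups overlapped through OMP_IGF1R 18 and IGF1R_flfl 2 alone. The log2 fold change was -0.19 (SE 0.0646, 95% interval -0.33 to -0.04), not called by edgeR (adjusted p = 0.112) but called by DESeq2 (adjusted p = 0.0424).

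Of 18 other thioredoxin and peroxiredoxin genes, 1 fell and 0 rose (median log2 0.07), where 8.2% of all tested genes were called, 5.37% lower. The gene that fell was Srxn1, sulfiredoxin, which repairs overoxidized peroxiredoxins and is an Nrf2 target too. It was at 62.7, 83.9, 79.2 and 67.1 CPM across the IGF1R_flfl libraries and 51.2, 40.7, 50.6 and 41.2 CPM across the OMP_IGF1R libraries, with no overlap. Srxn1 changed by -0.67 on the log2 scale (SE 0.113, edgeR adjusted p = 0.00993), more than any of the 10 genes, and the call held in all 8 fits that left out 1 library (adjusted p up to 0.0385). Scaled to mature neuron markers Srxn1 was at -0.04, beside the median of 0.65 for all genes. The others with the smallest p in this list, none of them called by edgeR with TMM scaling, were Sesn1, a sestrin (0.18, called with raw library totals), Txn1, thioredoxin itself (0.12), and Prdx3, the mitochondrial peroxiredoxin (-0.13).

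The list of 21 other Nrf2 targets, which also holds Srxn1, had 2 that fell and 0 that rose (median log2 -0.07). The second was Gstm1, a glutathione S-transferase, at 1290, 1197, 1315 and 1322 CPM across the IGF1R_flfl libraries and 960, 945, 1091 and 1033 CPM across the OMP_IGF1R libraries. Its groups did not overlap (log2 -0.35, SE 0.0687, edgeR adjusted p = 0.0176), but the call was lost without OMP_IGF1R 11, 12 or 18 (edgeR adjusted p up to 0.064). Scaled to mature neuron markers Gstm1 was at 0.31, beside the median of 0.65 for all genes. Gstm1 has close paralogs with which reads may be shared, so it is less certain. G6pdx, which supplies NADPH for glutathione and thioredoxin reduction, was at 144 ± 14.3 and 121 ± 7.96 CPM (log2 -0.25, edgeR adjusted p = 0.0987), and DESeq2 called it lower (adjusted p = 0.0448). In the higher direction DESeq2 called Ftl1, and Slc7a11 was called by limma voom and without IGF1R_flfl 2. Over the 5 lists together, each gene taken once, 3 of 77 tested genes were called, 2 lower and 1 higher, where 8.20% of all genes were called. The 77 genes had a median log2 fold change of 0.01 and 49.4% of values negative, beside -0.01 and 52.5% for all tested genes.

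**Figure D4:**
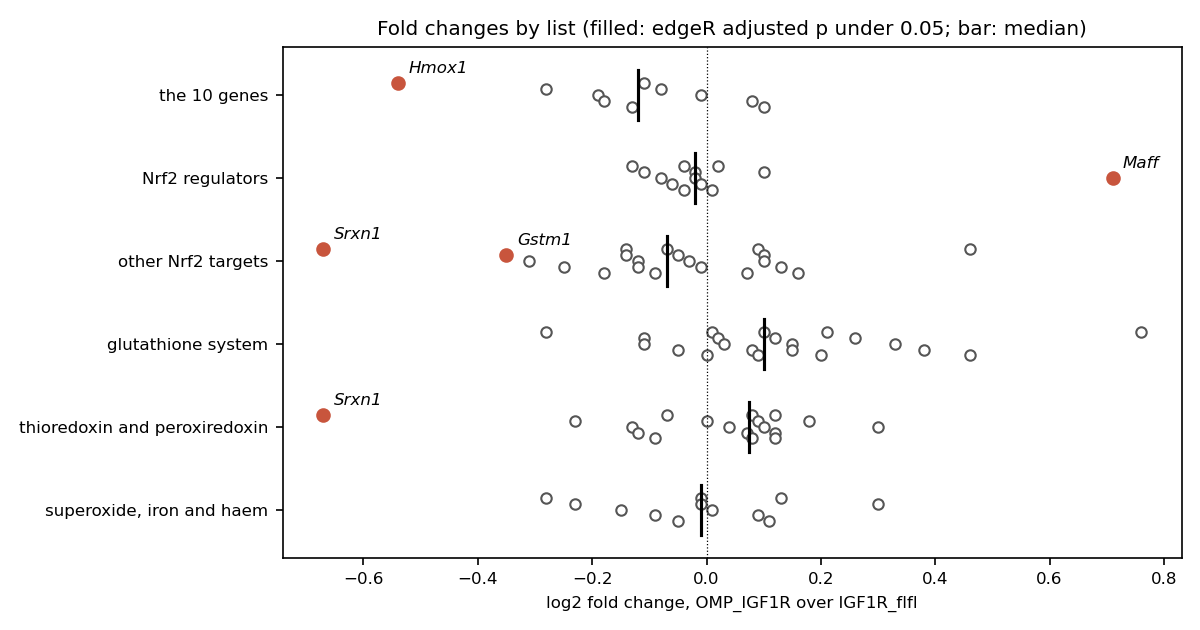
Log2 fold change, OMP_IGF1R over IGF1R_flfl, of each tested gene on the x axis, by list on the y axis, with a gene of 2 lists drawn in each. Filled points passed the edgeR threshold, and bars mark medians. Hmox1, Srxn1 and Gstm1 lie on the lower side and Maff on the higher side, and medians run from -0.12 to 0.10. Scaled to mature neuron markers Hmox1 (0.11) and Gstm1 (0.31) become positive, but stay below the median of all genes, which that scaling moves to 0.65.

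The remaining enzymes take superoxide and peroxides directly, and none of them was called by edgeR, DESeq2 or limma voom with the main scaling of each. Cat (ENSMUSG00000027187, chromosome 2, 103453849 to 103485160), the peroxisomal catalase, was at 70.3, 74.2, 76.5 and 57.0 CPM across the IGF1R_flfl libraries and 72.6, 74.4, 72.5 and 74.9 CPM across the OMP_IGF1R libraries. IGF1R_flfl 3 was the low library, and the rest lay close together. The log2 fold change was 0.08 (SE 0.084, 95% interval -0.10 to 0.27, edgeR adjusted p = 0.598), and 0.01 without IGF1R_flfl 3 and 0.14 without IGF1R_flfl 13. Sod1 (ENSMUSG00000022982, chromosome 16, 90220742 to 90226322), the copper-zinc dismutase of the cytosol, averaged 532 ± 40.1 and 528 ± 17.2 CPM (log2 -0.01, 95% interval -0.17 to 0.14, edgeR adjusted p = 0.94), over a range of 495 to 581 and 504 to 546 CPM. The groups overlapped, and the sign of the Sod1 value turned with raw library totals (0.06).

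Sod2 (ENSMUSG00000006818, chromosome 17, 13007839 to 13018119), the manganese dismutase of mitochondria, was at 86.7, 95.0, 91.8 and 89.5 CPM across the IGF1R_flfl libraries and 81.9, 81.9, 89.4 and 82.9 CPM across the OMP_IGF1R libraries. The groups overlapped through OMP_IGF1R 17 alone, and the log2 fold change was -0.11 (SE 0.0509, 95% interval -0.23 to 0.00, edgeR adjusted p = 0.225). The log2 ratio of Sod2 to Sod1 averaged -2.55 ± 0.122 and -2.65 ± 0.0409 (SD), a difference that did not pass (p by two-sided exact permutation = 0.171, adjusted p = 0.171). Prdx6 (ENSMUSG00000026701, chromosome 1, 161240112 to 161251219), a peroxiredoxin that also acts on phospholipids, was the most abundant of the 10 genes, at 1230, 975, 1166 and 1373 CPM across the IGF1R_flfl libraries and 994, 1085, 1197 and 1048 CPM across the OMP_IGF1R libraries. The widest spread was inside the first group, and the log2 fold change was -0.13 (SE 0.106, 95% interval -0.37 to 0.10, edgeR adjusted p = 0.494), -0.05 without IGF1R_flfl 3 and -0.21 without IGF1R_flfl 2. Its copy Prdx6b had 0 counts in every library, which allows up to 3 counts per library. How reads that fit both copies were counted is not given, so the 0 does not tell whether Prdx6b is expressed.

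Within the libraries titled IGF1R_flfl the genes did not vary as a block. Nfe2l2, Txnrd1 and Prdx6 were highest in replicates 3 and 1, the libraries with the highest mature neuron sums (22477 and 18879 CPM), while Gclm had its lowest values there. Hmox1, Gclc, Cat, Gclm and Keap1 were each highest in replicate 13, the library richest in gland markers (30808 CPM, where the other 3 held 11561 to 22301 CPM) and in neutrophil markers (878 CPM, where they held 97.3 to 200 CPM). Replicate 13 was also the highest of its group in horizontal basal (352 CPM) and microvillar (148 CPM) markers. OMP_IGF1R 17 was the richest of its group in gland (28141 CPM), neutrophil (524 CPM), mature neuron (11256 CPM) and horizontal basal (595 CPM) markers. Nfe2l2, Gclm, Sod1, Sod2 and Prdx6 had their highest value of that group there. Hmox1, Gclc, Txnrd1, Cat and Keap1 were not highest there. The part of neuron, gland, neutrophil, basal or microvillar cell content in these differences was not tested. Among the 4 libraries titled OMP_IGF1R the coefficient of variation was 1.35% to 5.32% for 8 of the 10 genes, 7.95% for Prdx6 and 11.7% for Hmox1. It was 3.89% to 14.3% among the IGF1R_flfl libraries, and lower there for Hmox1 (8.59%), Sod2 (3.89% against 4.28%) and, by little, Keap1.

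**Figure D5:**
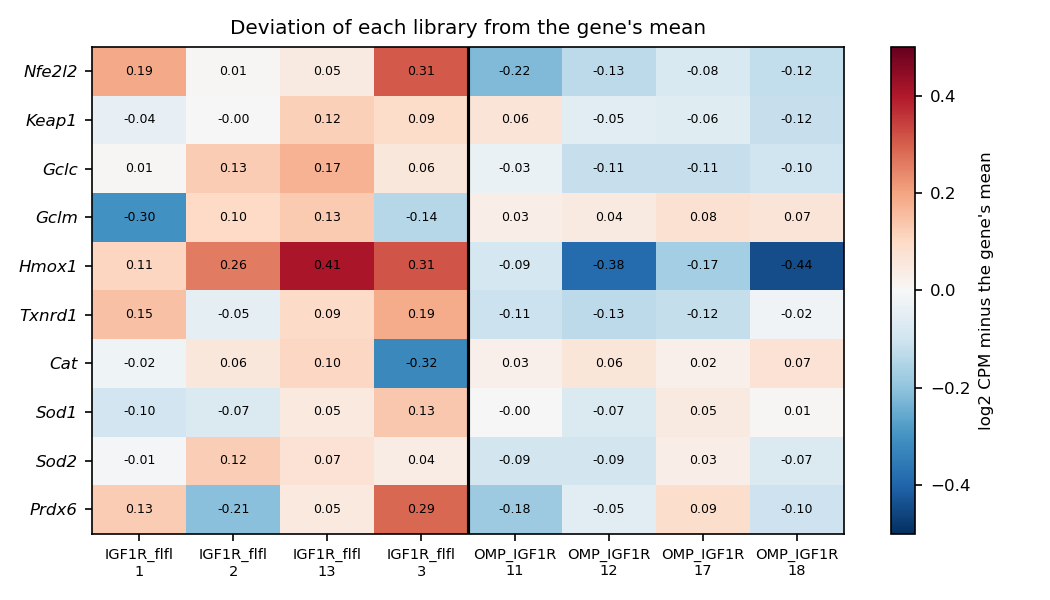
Log2 CPM of each gene (rows) in each library (columns) minus the gene's mean over 8 libraries, as colour and number. Hmox1 is positive in all IGF1R_flfl and negative in all OMP_IGF1R libraries, Nfe2l2 runs from 0.31 in IGF1R_flfl 3 to -0.22 in OMP_IGF1R 11, and Cat is at -0.32 in IGF1R_flfl 3.

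The genes whose levels followed those of a member most closely were found among 14869 genes by the root-mean-square difference of centred log2 CPM over the 8 libraries. Closest to Hmox1 were Ppargc1b (0.0702) and Rab11fip5 (0.0770), where the median gene differed by 0.326. Both were called lower (each log2 -0.50), which goes with their choice by likeness to Hmox1 over the same 8 libraries. Closest to Nfe2l2 were 1700123O20Rik (0.0225) and Umps (0.0350, median gene 0.206), and closest to Gclc were Tk2 (0.0274) and 6030458C11Rik (0.0314, median gene 0.170). For Txnrd1 they were 9130011E15Rik (0.0280) and Thg1l (0.0368). For Sod2 and Sod1 the closest were Cops8 (0.0178) and Vrk1 (0.0220). Keap1 lay closest to Ttc4 (0.0270), Cat to Rhou (0.0273) and Prdx6 to Olfr805 (0.0530). None of the 10 genes was among the 2 closest of another. With 14869 genes for 2 places, that does not tell whether the 10 genes varied together.

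The authors' deposited table, which held adjusted p-values for 15891 genes and called 13.4% of them, 8.43% lower, called Hmox1 (log2 -0.49), Nfe2l2 (-0.26), Gclc (-0.17) and Txnrd1 (-0.18) lower and none of the other 6.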

How the data were processed

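RNA of olfactory epithelium was sequenced in 8 libraries, grouped by their titles. The authors deposited whole-number read counts per gene, not normalized, and a table of their own comparison, used for description. It holds, per the file headers, a mean normalized signal, the log2 fold change and its standard error, the test's score, and p-values. The submitters' processing notes name TopHat2 2.0.14, Trim Galore 0.3.7, DESeq2 and SAMtools 1.2, and the build GRCm38 (mm10). How reads were counted, and with what strand setting, is not given in the sources used here. Total counts of 18802471 to 27793375 per library make counting error small for these genes, and the number of libraries limits precision. Replicates differed beyond sampling noise (mean chi-square per gene 11.4 to 103).

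The test was edgeR 4.0.16 in R 4.3.3 (TMM, filterByExpr, quasi-likelihood), run also on simulated data. Those held no shift in cell types and no library that stood apart, so they do not test the fit under such conditions. CPM use TMM effective library sizes. Exon lengths are unions from GENCODE vM21. Promoter windows are RefSeq's, without the bases after the start. The 10 genes and the 5 pathway and 15 marker lists were chosen with earlier results of these data known. Named were all 10 genes, up to 4 genes with the smallest p in each pathway list and the 2 genes closest to each member, of which 1 is given for some and those of Gclm are not reported here; Mafg, Mafk, Nqo1 and Gm17494 were chosen after their values were seen. Ratios were tested exactly. Alternatives were other scalings, filters, DESeq2 1.42.0, limma voom 3.58.1 and leaving out libraries.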

Additional observations from a re-analysis of the deposited data

Results flagged for a closer look

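Sod2 in OMP_IGF1R 17 stood at 89.4 CPM, above the 81.9 to 82.9 CPM of the other 3 libraries of its group. The gap to the nearest of them was 0.869 of the group's range, above Dixon's 95% critical value. It was the one such case in 26 groups of 4 checked (10 genes and 3 ratios in each title group), and chance alone gives about 1 in 20. OMP_IGF1R 17 is also the library with skeletal muscle markers at 588 CPM, and their part in this value was not tested. Without it the log2 fold change of Sod2 was -0.13 (edgeR adjusted p = 0.164), beside -0.11 (0.225) with it.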

How the results depend on the processing

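DESeq2 called 2140 genes in all, 4 of the 10 genes and 6 pathway genes, where edgeR called 1425, 1 and 3, and limma voom called 3 of the 10. Raw library totals gave 5 pathway genes. Leaving out 1 library gave 569 to 1477 calls over all genes (841 without IGF1R_flfl 1, 886 without IGF1R_flfl 3, 724, 613 and 569 without OMP_IGF1R 11, 12 and 18), 1 to 2 of the 10 genes (2 without IGF1R_flfl 2) and 2 to 4 pathway genes. Without both IGF1R_flfl 2 and OMP_IGF1R 17, 2 of the 10 were called, Nfe2l2 (-0.33) and Hmox1, and 3 pathway genes. Libraries scaled to mature neuron markers gave 14215 calls, 9 of the 10 genes and 73 pathway genes, all of the 9 higher: by construction the median of all genes moves to 0.65, and the signs of Nfe2l2 (0.39), Keap1 (0.57), Gclc (0.47), Hmox1 (0.11), Txnrd1 (0.48), Sod1 (0.65), Sod2 (0.54) and Prdx6 (0.54) turned. Sod1, near 0, also turned with raw totals (0.06) and upper-quartile factors (0.02), and ran from -0.05 to 0.04 over the libraries left out (0.01 without IGF1R_flfl 13 or OMP_IGF1R 12, 0.04 without IGF1R_flfl 3); the cause was not tested. Leaving out 1 library moved Keap1 between -0.12 (without OMP_IGF1R 11) and -0.05 (without IGF1R_flfl 13), neither called. The Gclm to Gclc difference was 0.24 to 0.33 over the libraries left out and 0.31 without both, where the smallest p a permutation test can give is 0.0571 and 0.1. No paired analysis was possible because the groups share no replicate number.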

Other observations

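Nqo1, a quinone reductase that is a standard Nrf2 target and is also known to mark sensory neurons of the dorsal zone of the epithelium, varied more between libraries than between groups. In the order of replicates 1, 2, 13, 3 and 11, 12, 17, 18 it was at 131, 303, 320 and 334 CPM across the IGF1R_flfl libraries and 313, 136, 273 and 153 CPM across the OMP_IGF1R libraries. One library of the first group and 2 of the second were at 131 to 153 CPM, and the other 5 at 273 to 334 CPM. The group means were 272 ± 94.4 and 219 ± 87.7 CPM (SD, n = 4 each; log2 -0.31, SE 0.337, edgeR adjusted p = 0.626). The 10 genes varied less within a group, with coefficients of variation of 14.3% or lower. Nqo1 was chosen after its values were seen.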
